A study of Mus musculus with 4 samples.

Results

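Genes of voltage-gated and potassium channels were followed in a list of chromatin regions bound by the transcription factor Zeb1 in mouse embryonic stem cells. A region (peak) was taken where the gene symbol that the authors had assigned to it began with Kcn, Cacna, Cacnb or Cacng, or with Scn and a digit, and Kcnq1 and Kcnq1ot1 were left out. This gave 165 of the 17435 peaks, assigned to 96 of the 12271 gene names in the list. In the RefSeq annotation 136 symbols fit these names. Of them, 132 were channel subunits and were placed in families by symbol, 96 as pore-forming and 36 as auxiliary subunits. The other 4 (Kcnd3os, Kcnmb4os1, Kcnmb4os2 and Kcnrg) had no peak and were left out of the families. The names reach beyond voltage-gated pores: inward rectifiers and two-pore-domain channels open without a voltage sensor, and auxiliary subunits form no pore.

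The cells were of the mES-D3 line, an established embryonic stem cell line, adapted to culture without feeder cells. They were kept in ground state medium (GS), which held 1 μM PD0325901 (a MEK inhibitor), 3 μM CHIR99021 (a GSK-3 inhibitor) and 20 ng/mL LIF. Chromatin was fixed with 1% formaldehyde, sheared to fragments of about 200 bp and precipitated with 8 μg of an antibody to Zeb1, and 3 ChIP libraries and 1 input library were sequenced. There was no second culture condition and no precipitation with a control antibody, so that the input was the only control. For each peak the list gives treatment reads, input reads and an enrichment, all as means made by the authors, and the enrichment is their ratio of treatment to input after normalization for mapped reads. The list holds no SD and no value per library. The authors drew 30 M reads per sample before alignment, and the reads left in each library after that were not used here. Expression was not measured in these data, so that no marker of the cell line and no channel transcript could be checked.

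Voltage-gated potassium, sodium and calcium channels carry the electrical signals of neurons, muscle and endocrine cells, while inward rectifiers and two-pore-domain channels set the resting potential. A pore is built by alpha subunits, and auxiliary subunits change its gating, its traffic to the membrane or its response to drugs. Many of these genes are switched on as neurons and heart cells differentiate, and Zeb1 is a zinc finger protein known mainly as a repressor that binds E-box sequences.

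The letters that Zeb1 is known to bind were searched in the reference sequence of every peak, as CNCACCTG, CNTACCTG, TNCACCTG or TNTACCTG on both strands. These spellings exclude each other at any one position of a strand. Of the 165 channel peaks, 139 held a match (84.2%, 95% Wilson interval 77.9 to 89.0%), against 76.8% of the whole list. Within 5 kb of a transcription start site (TSS) the shares were 86.4% of 88 channel peaks and 76.8% of 10698. The median length of channel peaks was 2050 bp and that of the list 1850 bp, and the part of length in the share was not tested. A match was within the 200 bp at the centre of 32 channel peaks (19.4%), against 16.6% of the list. A match is a description of the letters and does not locate the protein.

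Windows of 80 bases from 5 peaks away from repeats are shown first, as examples from a T-type calcium channel promoter, a T-type coding exon, a silent potassium channel subunit, a two-pore-domain channel and a calcium channel gamma subunit. They are from GRCm38.p6 (mm10), 5′ to 3′, with a match in capitals. It is the match nearest the peak centre among those whose window lay within the peak and outside UTRs of the gene. For Kcnk12 it also had to be in coding sequence. The match lay 65 bp from the peak centre for Cacna1g, 138 for Cacna1i, 314 for Kcnv2, 467 for Kcnk12 and 135 for Cacng6. The windows are chr11:94473251-94473330 on the plus strand for Cacna1g, chr15:80358748-80358827 on the minus strand for Cacna1i and chr19:27323775-27323854 on the plus strand for Kcnv2. Those of Kcnk12 and Cacng6 are chr17:87797269-87797348 on the minus strand and chr7:3424371-3424450 on the plus strand. The Kcnv2 and Kcnk12 matches were in coding sequence and that of Cacna1i was at the border of a coding exon and an intron. The Cacna1g match was in an intron and that of Cacng6 outside genes.
Cacna1g: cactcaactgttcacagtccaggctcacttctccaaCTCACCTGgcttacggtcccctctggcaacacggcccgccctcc
Cacna1i: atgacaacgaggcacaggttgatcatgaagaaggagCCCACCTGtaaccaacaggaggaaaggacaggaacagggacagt
Kcnv2: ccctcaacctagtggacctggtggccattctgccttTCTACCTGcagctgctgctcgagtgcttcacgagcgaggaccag
Kcnk12: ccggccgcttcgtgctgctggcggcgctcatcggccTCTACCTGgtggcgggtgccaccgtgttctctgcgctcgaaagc
Cacng6: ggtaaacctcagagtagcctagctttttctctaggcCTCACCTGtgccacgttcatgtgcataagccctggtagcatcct

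In the Kv1 family (Kcna), whose members form channels that open on depolarization, 3 peaks held the same match in a like stretch of their coding sequence. Only matches in coding exons were taken for these windows. The match lay 1602 bp from the peak centre in Kcna1, 639 bp in Kcna3 and 34 bp in Kcna5. The windows are chr6:126642859-126642938 on the plus strand for Kcna1, chr3:107036900-107036979 on the minus strand for Kcna3 and chr6:126534445-126534524 on the plus strand for Kcna5, with the match in capitals. They are shown because the 3 genes are paralogues, so that their matches are 1 conserved coding sequence and not 3 independent cases. Of the 80 bases, 57 were identical in all 3 windows, with 65 shared by Kcna1 and Kcna3, 60 by Kcna1 and Kcna5, and 66 by Kcna3 and Kcna5. The longest run without a difference had 18 bases and included the match. That run occurred in 3 of the 6 Kcna peaks within 5 kb of a TSS and in no other peak of the list. Kcna3 and Kcna5 were chosen after their values were seen.
Kcna1: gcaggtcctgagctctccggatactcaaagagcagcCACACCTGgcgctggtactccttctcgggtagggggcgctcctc
Kcna3: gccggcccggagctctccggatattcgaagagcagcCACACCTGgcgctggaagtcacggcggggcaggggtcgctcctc
Kcna5: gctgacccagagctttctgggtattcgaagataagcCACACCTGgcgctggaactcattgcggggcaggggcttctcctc

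A last set is from peaks centred on repeats beyond 5 kb of the TSS, which took up part of the channel peaks. LINE-1 elements are retrotransposons present in many similar copies, and the windows below lie in L1Md_T copies assigned to Kcnc2, Kcnh7, Kcnd2, Kcnv1 and Kcnj3, with the match in capitals. Their positions are chr10:112323439-112323518, chr2:63606703-63606782 and chr6:20793641-20793720 on the minus strand, and chr15:45701165-45701244 and chr2:55628522-55628601 on the plus strand. The window assigned to Kcnf1, chr12:17123087-17123166 on the minus strand, is from an IAPEz-int element, the internal part of an endogenous retrovirus. The L1Md_T windows resemble each other, since the elements are copies of one family.
Kcnc2: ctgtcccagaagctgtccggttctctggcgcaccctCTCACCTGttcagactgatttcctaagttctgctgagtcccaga
Kcnh7: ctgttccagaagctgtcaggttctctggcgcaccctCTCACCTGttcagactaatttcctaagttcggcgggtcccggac
Kcnd2: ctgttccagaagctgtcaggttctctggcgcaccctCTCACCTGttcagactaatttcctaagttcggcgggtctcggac
Kcnv1: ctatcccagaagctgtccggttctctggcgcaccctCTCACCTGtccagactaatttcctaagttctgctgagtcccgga
Kcnj3: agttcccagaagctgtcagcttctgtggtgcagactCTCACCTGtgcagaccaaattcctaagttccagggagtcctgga
Kcnf1: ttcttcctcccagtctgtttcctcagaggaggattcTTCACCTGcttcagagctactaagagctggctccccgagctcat

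A peak within 5 kb of its TSS was listed for 78 of the 132 channel genes (59.1%, interval 50.6 to 67.1%), against 38.0% of the 26180 RefSeq genes and 45.1% of the 21000 protein-coding ones. Any assigned peak was listed for 96 (72.7%, 64.6 to 79.6%), against 46.8% of RefSeq genes and 53.3% of protein-coding ones. Of these 96, 18 had peaks only beyond 5 kb, and 36 of the 132 genes had none. The limit of 5 kb is the distance that the authors used around a TSS, and the intervals cover counting error only.

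The families differed in these counts. The alpha subunits of voltage-gated potassium channels (Kv) had a peak within 5 kb in 31 of 39 genes (79.5%, 64.5 to 89.2%), and 37 of the 39 had a peak somewhere. The sodium channel alpha subunits, which carry the upstroke of the action potential, had 1 of 10 (10%, 1.79 to 40.4%), with an interval that includes the 38.0% of all RefSeq genes and not the 45.1% of protein-coding ones. Two-pore-domain potassium channels had 10 of 14, inward rectifiers 7 of 15 and the calcium- or sodium-activated potassium channels 5 of 8. Potassium channel auxiliary subunits had 4 of 16. Among calcium channel subunits the counts were 7 of 10 for alpha1, 3 of 4 for alpha2delta, 4 of 4 for beta and 4 of 8 for gamma, and the sodium channel beta subunits had 2 of 4. Grouped by role, 61 of 96 pore-forming subunits (63.5%, 53.6 to 72.5%) and 17 of 36 auxiliary subunits (47.2%, 32.0 to 63.0%) had a peak within 5 kb. Grouped by ion, the counts were 57 of 92 for potassium, 18 of 26 for calcium and 3 of 14 for sodium. The differences between families were not tested.

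**Figure D1:**
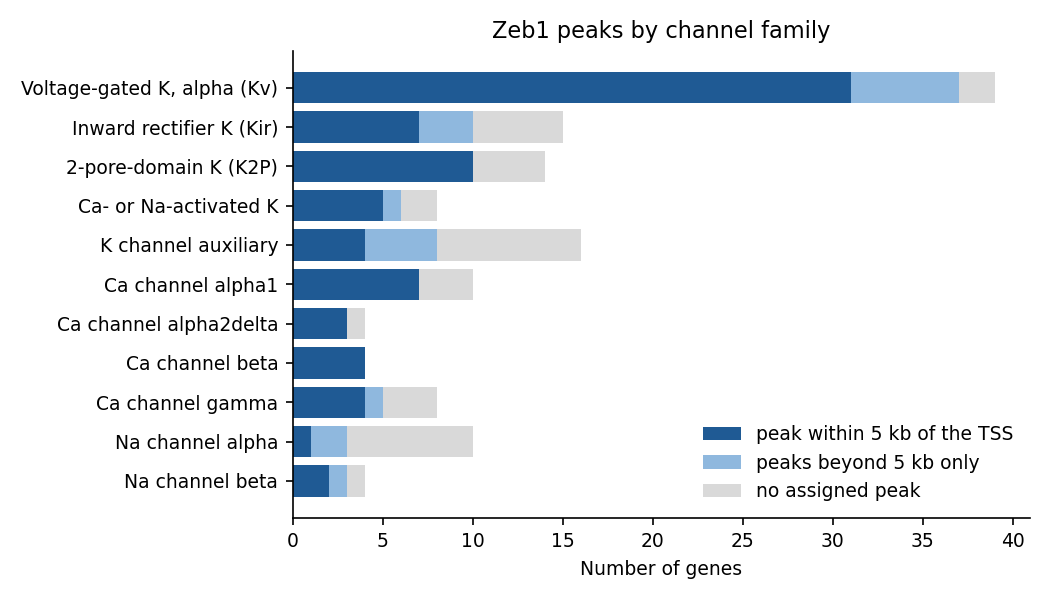
Number of channel genes in each of the families (bars, 132 genes in all), split into genes with a Zeb1 peak within 5 kb of the TSS, genes with peaks only beyond 5 kb and genes with no assigned peak. The Kv alpha bar has 31 of 39 genes in the first class, and the sodium channel alpha bar has 1 of 10.

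Channel genes are long, with a median length of 42.0 kb (quartiles 13.4 and 150 kb) against 13.5 kb for all RefSeq genes (3.97 and 37.1 kb), so the share was also taken within bins of length. In genes up to 10 kb, 14 of 22 channel genes had a peak within 5 kb (63.6%, 43.0 to 80.3%), against 25.9% of all RefSeq genes in that bin and 32.8% of protein-coding ones. From 10 to 50 kb the shares were 53.2% of 47 channel genes and 48.1% of protein-coding genes. From 50 to 200 kb they were 57.9% of 38 and 59.4%, and over 200 kb 68.0% of 25 and 61.3%. Only in the shortest bin did the interval of the channel genes lie above the share of protein-coding genes.

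Promoters were also split by base composition, taking 250 bases before to 50 after each curated RefSeq start. A promoter was called CpG-rich where its GC content was at least 55% and its observed over expected CpG at least 0.65, and 57 of 132 channel genes (43.2%) had one, against 37.2% of all RefSeq genes and 42.3% of protein-coding ones. With a CpG-rich promoter, 46 of 57 channel genes had a peak within 5 kb (80.7%, 68.7 to 88.9%), against 68.0% of all RefSeq genes and 72.4% of protein-coding ones. Without one, 32 of 75 did (42.7%, 32.1 to 53.9%), against 20.3% and 25.1%. The motif was in 30 of the 185 channel promoters (16.2%) and in 16.0% of all 31647 promoters. Channel genes with the motif in a promoter had a peak within 5 kb in 16 of 25 cases (64.0%), and those without it in 62 of 107 (57.9%). Over all RefSeq genes these shares were 38.3% with the motif and 38.0% without it.

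**Figure D2:**
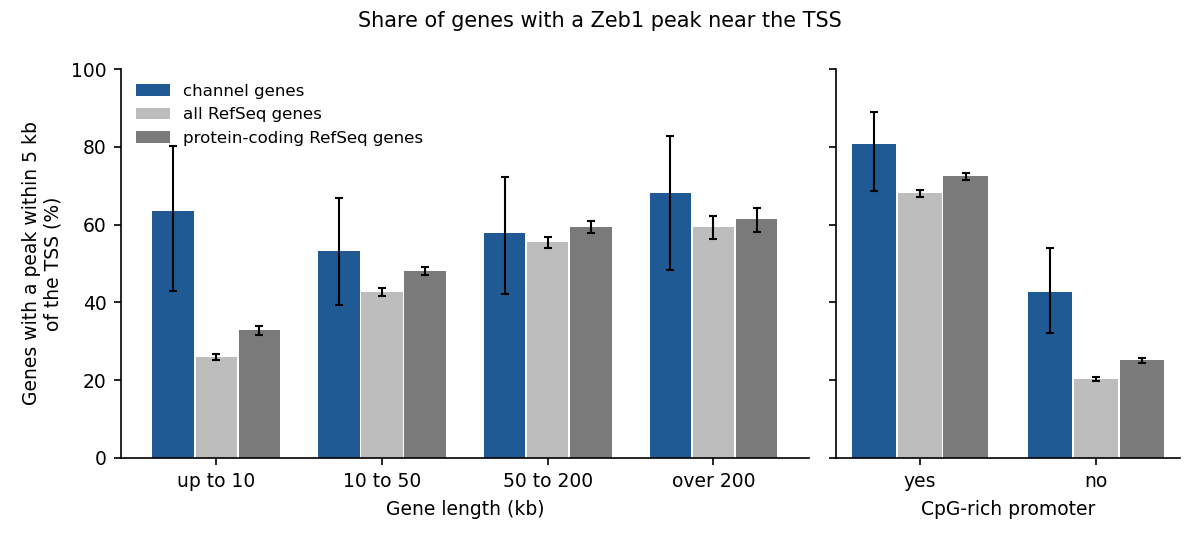
Percent of genes with a Zeb1 peak within 5 kb of the TSS, by gene length in kb and by whether the promoter was CpG-rich, for channel genes, all RefSeq genes and protein-coding RefSeq genes; error bars are 95% Wilson intervals. The bars of the channel genes stand farthest above the others in genes up to 10 kb and in genes without a CpG-rich promoter.

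Of the 165 peaks, 88 were within 5 kb of the TSS of their assigned gene (53.3%, 45.7 to 60.8%), against 61.4% of the whole list, and 70 within 1 kb (42.4%, against 52.2%). By the GENCODE starts of the same gene, 102 of the 165 were within 5 kb (61.8%, 54.2 to 68.9%), against 66.4% of the 16619 list peaks whose symbol GENCODE holds. Both the starts and the list peaks compared differ from those of the first comparison. The centre was inside the assigned gene in 113 peaks (68.5%, 61.0 to 75.1%), against 58.3%. Of the 77 peaks beyond 5 kb, 39 were inside their own gene (50.6%, 39.7 to 61.5%), against 27.2% of such peaks in the list. Another 12 were inside a different gene (15.6%, against 21.4%) and 26 in no gene (33.8%, against 51.3%). A longer gene leaves more room for such peaks, and channel genes had a median length of 42.0 kb against 13.5 kb for all RefSeq genes. The part of gene length in these shares was not tested. The 39 distal peaks inside their own gene comprised 16 in coding exons, 19 in introns, 3 in 3′ UTRs and 1 in a 5′ UTR of the reference. Near the TSS, 25 peaks were centred in 5′ UTRs, 23 in coding exons, 26 in introns and 14 outside the gene.

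The median enrichment of the channel peaks was 7.05 (quartiles 5.25 and 8.96), against 6.50 (4.91 and 8.53) in the whole list. Within 5 kb of the TSS it was 7.55 against 6.74, and beyond 5 kb 6.31 against 6. An enrichment of at least 5 was listed for 133 of 165 peaks (80.6%, 73.9 to 85.9%), against 74.0% of the list. At least 10 was listed for 32 (19.4%, 14.1 to 26.1%), against 14.7%. The treatment reads had a median of 50 per peak (range 21 to 159), and the input reads a median of 15 (range 1 to 112). Across the 165 peaks enrichment fell with input reads (Spearman's rho -0.52, against -0.46 over the whole list) and rose with treatment reads (0.37, against 0.41). Both terms enter the ratio, peaks are not replicates, and all peaks share the same libraries.

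**Figure D3:**
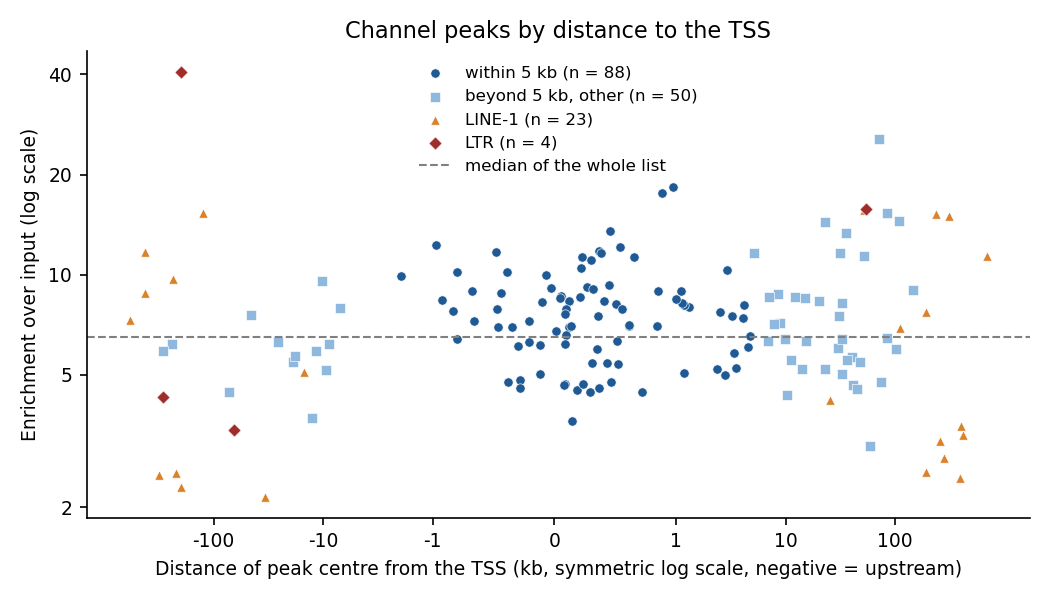
Enrichment over input (log scale) of each of the 165 channel peaks against the distance of its centre from the TSS in kb (symmetric log scale, negative values upstream), with peaks on LINE-1 and LTR elements marked. The peaks within 5 kb lie between 3.64 and 18.3, and the lowest values, down to 2.15, are on LINE-1 elements; the dashed line is the median of the whole list, 6.50.

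Channel genes with a peak had a mean of 1.72 peaks, against 1.42 over all gene names with a peak. In 54 of the 96 genes there was 1 peak, in 28 there were 2 and in 8 there were 3. At least 2 peaks were listed for 43.8% of these 96 genes, against 26.9% of all gene names with a peak. Channel genes are longer than RefSeq genes (median 42.0 against 13.5 kb), and the part of length in these counts was not tested. By assigned peaks, genes with more than 3 included Cacna1i with 7, Kcnh2 with 6, Kcnd2 with 5, and Cacna1g and Kcnj3 with 4.

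The T-type calcium channels, which open at low voltages and serve pacemaking and burst firing, had 13 peaks in their 3 genes, with a median enrichment of 8.58. Cacna1i (Entrez gene 239556), which encodes Cav3.3, had its TSS peak at chr15:80286001-80288900, in the 5′ UTR, with 75.2 treatment and 18.8 input reads and an enrichment of 8.58. The other 6 were inside the gene, between 59.0 and 108 kb from the TSS. The peak at chr15:80358251-80359600, on coding exon 9 of 37, had an enrichment of 25.6 from 39 treatment and 3 input reads. With so few input reads the counting interval of that ratio is 8.14 to 129, taking the listed means as counts. Further along, chr15:80371051-80373100 in intron 16 had 63.6 and 8.20 reads and an enrichment of 15.3, and chr15:80394551-80396350 on the last coding exon had 83 and 12.9 reads and 14.5. The remaining enrichments were 3.05 in intron 5, 4.74 on exon 10 and 5.98 in intron 32. Of the 6 intragenic peaks of Cacna1i, 3 had a listed enrichment above that of its TSS peak and 3 below it, and the counting interval of the peak on exon 9 includes the TSS value.

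Cacna1g (Entrez gene 12291), which encodes Cav3.1, had its highest enrichment near the TSS: 18.3 at chr11:94471451-94475000, centred 973 bp downstream in intron 1, from 106 treatment and 11.9 input reads. This was the highest value of any channel peak within 5 kb of a TSS. Its other peaks were on coding exons 8, 11 and 16, with enrichments of 8.51, 11.6 and 5.65. Cacna1h, which encodes Cav3.2 and was chosen after its values were seen, had a peak at chr17:25431751-25434900 in intron 1, 458 bp downstream of the TSS, with 109 and 17.4 reads and an enrichment of 13.5. A second Cacna1h peak in intron 2 had 5.25.

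**Figure D4:**
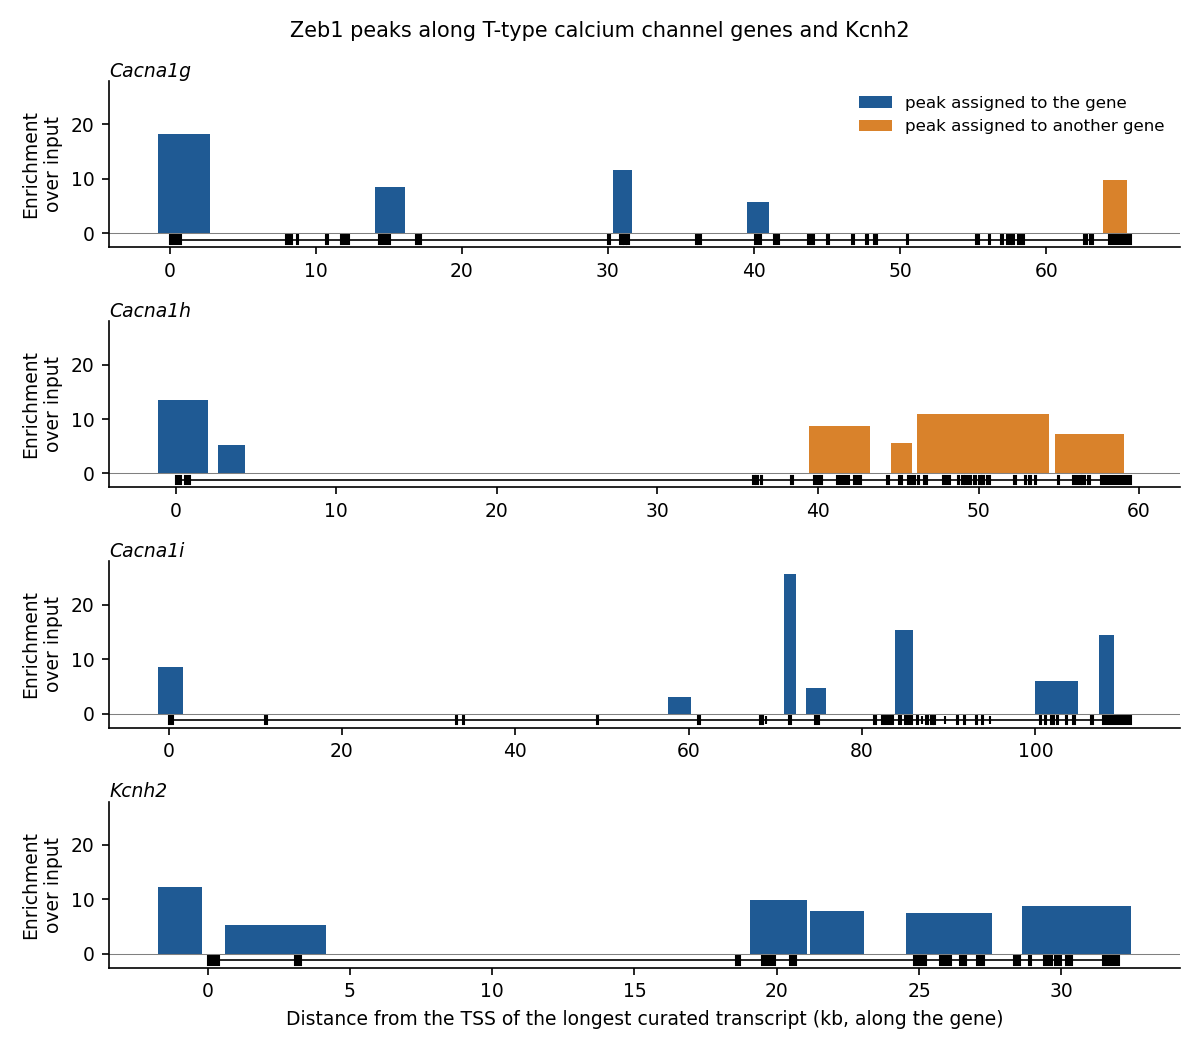
Enrichment over input of the peaks along Cacna1g, Cacna1h, Cacna1i and Kcnh2 (bars, as wide as the peak) against the distance in kb from the TSS of the longest curated transcript, with exons as black boxes. Blue bars are peaks assigned to the gene and orange bars are peaks assigned to a neighbour; Cacna1i has 7 blue bars, and Cacna1h has 4 orange ones over its 3′ exons.

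The other calcium channel pores had lower medians. The P/Q-, N- and R-type genes Cacna1a, Cacna1b and Cacna1e, whose channels trigger transmitter release, each had a TSS peak, and their 5 peaks had a median enrichment of 4.75. Of the L-type genes, which couple excitation to contraction and secretion, 1 of 4 had a peak (Cacna1c), and Cacna1d, Cacna1f and Cacna1s had none assigned.

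The alpha2delta subunits, which bring the pore to the membrane, had a TSS peak in 3 of 4 genes, with enrichments of 6.79 for Cacna2d1, 6.97 for Cacna2d2 and 6.97 for Cacna2d3. Each of these genes also had a distal peak. That of Cacna2d1 lay on an L1Md_T element in intron 4, 235 kb downstream, with an enrichment of 15.2. That of Cacna2d2 lay 10.4 kb upstream with 9.55, and that of Cacna2d3 in intron 2 with 5.20. Cacna2d4, which acts in photoreceptors, had none.

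All 4 beta subunits, which bind the pore inside the cell, had a TSS peak. The highest was Cacnb3 at chr15:98630701-98633000, 478 bp upstream, with 63.7 treatment and 11.4 input reads and an enrichment of 11.7. Among gamma subunits the highest near a TSS was Cacng4, one of the gamma proteins that also serve AMPA receptors, with 71.4 and 12.8 reads and 12.1 at chr11:107792951-107794900. That peak had the highest GC content of all channel peaks, 67.9%, and no match of the motif. Cacng6 had 3 peaks, and 2 of them were centred inside Cacng8, which lies upstream of it and had no peak assigned.

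The Kv alpha subunits held 63 of the 165 peaks, with a median enrichment of 7.89. The silent subunits (Kcnf, Kcng, Kcns and Kcnv), which form no channel alone and modify Kv2 channels, had a peak within 5 kb in 10 of 10 genes. That share was 38.0% over all RefSeq genes and 45.1% over protein-coding ones, also beside the other groups within families. These groups are small, no interval is given for them, and their differences were not tested. Kcnv2 (Entrez gene 240595), which acts in photoreceptors, had the highest enrichment near a TSS in the Kv family, 17.6 at chr19:27322451-27324550, from 63.5 treatment and 7.50 input reads. It was centred on coding exon 1 of 2, 881 bp downstream of the TSS. Kcnf1 had 8.20 on its single exon, and its second peak, 53.7 kb downstream on the IAPEz-int element shown above, had 15.8 from 59.9 and 8.57 reads. Kcns2 had 8.27 at 99 bp upstream of its TSS. Its other peak, on an L1Md_T element 34.0 kb upstream, had 30 treatment and 33 input reads and the lowest enrichment of all channel peaks, 2.15.

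Among Kv3 genes (Kcnc), whose channels close fast and allow high firing rates, Kcnc1, Kcnc2 and Kcnc4 had TSS peaks, and 2 of these peaks were among the 5 channel peaks with the most treatment reads. Kcnc1 at chr7:46395551-46398700 had 148 treatment and 29 input reads and an enrichment of 11.3. Kcnc4 at chr3:107457601-107460900 had 129 and 38.2 reads and 6.96. Kcnc2 had 8.60 at its TSS, 52 bp downstream, and 15.7 on an L1Md_T element in intron 2.

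Among Kv1 genes 6 of 8 had a TSS peak, and Kcna10 had no peak. Kcna1, mutated in episodic ataxia, had 137 treatment and 34.6 input reads at chr6:126642601-126646400 and an enrichment of 7.99. Kcna4, which gives a fast inactivating current, had no peak nearer than 416 kb, and both of its peaks were on LINE-1 elements. Among Kv4 genes (Kcnd), which give transient currents in heart and neurons, Kcnd2 had a TSS peak of 84 treatment and 25 input reads and an enrichment of 7.24. Its other peaks were on repeats between 200 and 422 kb upstream, 3 on LINE-1 and 1 on an LTR element, with enrichments of 8.78, 2.50, 4.30 and 2.30. Kcnd1 had none.

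The Kcnh genes, which include the channel of the heart's repolarizing current, all had a peak, 5 of 8 within 5 kb of a TSS. Kcnh2 (Entrez gene 16511), which encodes that channel, had 6 peaks. Of these, 5 were within 5 kb of the start of its long transcript or of an inner start. The peak 971 bp upstream of the start of its long transcript had 51 treatment and 8.43 input reads and an enrichment of 12.3. At the inner start the enrichments were 9.90 at 1.96 kb upstream and 7.86 at 91 bp downstream. Of the rest, the peak with 5.19 was 2.38 kb downstream of the start of the long transcript. Those with 7.40 and 8.76 were 4.04 and 8.52 kb downstream of the inner start. Kcnh8 had 1 peak, on an L1Md_A element 124 kb upstream, with 64.5 and 8 reads and an enrichment of 15.3. Among Kv7 genes (Kcnq), which include those of the M current, 3 of 4 had a TSS peak. The median enrichment of their 4 peaks was 9.08.

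Of the inward rectifiers, 10 of 15 had a peak. Kcnj12, which gives part of the resting current of heart muscle, had the highest enrichment near a TSS in this family, 8.13 on coding exon 3 at chr11:61068501-61071350. Kcnj3, a G protein-gated channel subunit, had 4.55 at its TSS and 9.71, 7.70 and 2.45 on LINE-1 elements between 192 and 392 kb away. The last of these had 113 treatment and 112 input reads, the most input reads of any channel peak.

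The two-pore-domain channels, which carry the background potassium current, had TSS peaks in each of the 10 genes with a peak. Kcnk12, a subunit that by itself gives little or no current, had 106 treatment and 21 input reads and an enrichment of 10.5 at chr17:87796301-87799250. A second peak, on its coding exon 2, had 11.4. No peak was assigned to Kcnk3, Kcnk7, Kcnk16 or Kcnk18.

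Among the calcium- and sodium-activated potassium channels, the small-conductance gene Kcnn1 had the channel peak with the most treatment reads. It lay at chr8:70861651-70866300, with 159 treatment and 40.3 input reads and an enrichment of 7.92. The authors' distance put it 6.97 kb upstream, and the nearest GENCODE start of Kcnn1 was 717 bp away. Kcnn2 had 147 and 31.4 reads and 10.2 at 804 bp upstream of its TSS. A second Kcnn2 peak, on an IAPEz-int element inside the gene, had the highest enrichment of all channel peaks, 40.7. It came from 21 treatment reads and 1 input read, with a counting interval of 6.55 to 1683, so that this value gives no rank among the peaks.

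The auxiliary subunits of potassium channels had a peak in 8 of 16 genes (50%), against 46.8% of RefSeq genes and 53.3% of protein-coding ones. Within 5 kb of a TSS 4 of the 16 had one (25%, 10.2 to 49.5%). That interval includes the 38.0% of RefSeq genes and the 45.1% of protein-coding ones. The 11 peaks of these subunits had a median enrichment of 4.76, against 6.50 in the whole list. The Kcne subunits, which slow or hold open Kv pores, had a TSS peak in 0 of 5 genes, and the BK channel beta subunits (Kcnmb) in 0 of 4. Groups this small were not tested against the shares of all genes. The Kcnip genes, calcium sensors that bind Kv4 pores, had one in 3 of 4, with the highest at Kcnip3, 6.41 from 86 and 28.9 reads. Kcne4 had 2 peaks on LINE-1 elements, at 254 and 310 kb downstream, with enrichments of 3.15 and 15.0.

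The sodium channel subunits had a peak in 6 of 14 genes, against 46.8% of RefSeq genes and 53.3% of protein-coding ones. Within 5 kb the count was 3 of 14 (21.4%, 7.57 to 47.6%). That interval includes the 38.0% of RefSeq genes and the 45.1% of protein-coding ones. Scn8a, a channel of the axon initial segment, had 7.55 at 45.7 kb upstream, 4.20 on a LINE-1 element in intron 1 and 5.45 on coding exon 11. Scn7a, a sodium sensor, had 3.40 on an IAPEz-int element 65.8 kb upstream. Of the beta subunits, which anchor the channel and modify its gating, Scn4b had 8.83 at 442 bp upstream from 70.1 and 16 reads. Scn3b had 5.10 on an L1Md_T element 14.8 kb upstream.

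Repeats accounted for part of the distal peaks. Of the 165 channel peaks, 23 were centred on LINE-1 elements (13.9%, 9.47 to 20.0%), against 14.2% of the whole list, and 4 on LTR elements (2.42%, against 1.65%). All 27 were beyond 5 kb of the TSS, as were 98.3% of the LINE-1 and LTR peaks of the list. Of the 32 channel peaks with an enrichment of at least 10, 16 were within 5 kb of a TSS (50%, against 55.9% of such peaks in the list) and 8 were on these elements (25%, against 25.8%). The L1Md_T windows above shared a string of 15 letters, CTCACCTGTNCAGAC, which includes the match. It was in 8 of the 23 LINE-1 peaks and in 0 of the other 142 channel peaks, against 13 of 14952 such peaks in the whole list (0.0869%), so that this 0 is at the background. The 8 had a median enrichment of 9.25 (range 6.90 to 15.7) with a median of 9 input reads, and the 15 without it had 3.15 (2.15 to 15.3) with 16 input reads. In the whole list 801 of 2483 LINE-1 peaks held the string (32.3%), with a median enrichment of 8.80 against 3.66 without it, and median input reads of 9 against 17.5. Input reads and the type of LINE-1 element moved with the string as well, and their parts in the difference were not tested. Of the 8 channel peaks with the string 6 were on L1Md_T, and of the 15 without it 5. Within these L1Md_T peaks the median enrichment was 10.1 with the string and 5.10 without it (range 2.15 to 15.2). In all L1Md_T peaks of the list the medians were 9.35 and 4.40. Where a channel peak held several copies of the string, neighbouring copies were 212 or 214 bp apart, with 1 gap of 424 bp. The string was taken from the windows of Kcnh7 and Kcnj3 after they were seen, with N where they differ, and 3 peaks without it (Kcnh8, Cacna2d1 and Kcne4) had enrichments of at least 15.0.

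**Figure D5:**
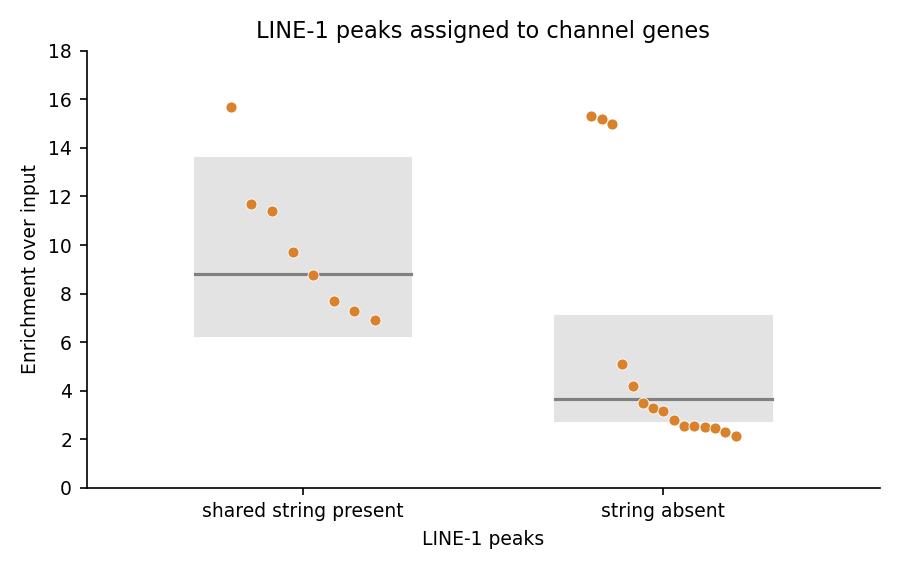
Enrichment over input of the 23 LINE-1 peaks assigned to channel genes (points, ordered by value), split by whether the peak held the shared 15-letter string. Grey boxes are the quartiles and grey lines the medians of all LINE-1 peaks of the list, 8.80 with the string and 3.66 without it; the 8 points with the string lie between 6.90 and 15.7, and 3 of the 15 points without it are at 15.0 or above.

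Some distal peaks were at starts other than the one used for the distance. The authors' annotation named an Ensembl promoter at 8 channel peaks beyond 5 kb of the listed TSS (4.85% of all channel peaks, 2.48 to 9.27%), against 3.02% of the whole list. They were assigned to 6 genes: Kcnab2, Kcnb2, Kcng2, Kcnip4, Kcnn2 and Kcnt1. A GENCODE start of the assigned gene was at most 504 bp from each of these peaks except that of Kcng2. For 3 of them, Kcnab2, Kcnb2 and Kcnip4, the listed distances left no peak within 5 kb. By the GENCODE starts of each gene, 83 of 132 channel genes had a peak within 5 kb, in place of 78. No share of all genes by these starts is given here, so that the 83 has no background beside it.

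Other channel genes were followed from a list of 70 that the naming rule does not reach. A peak within 5 kb of the TSS was listed for 33 of them (47.1%, 35.9 to 58.7%). The share was 38.0% over all RefSeq genes and 45.1% over protein-coding ones, and the interval includes the protein-coding share. Any peak was listed for 42 of the 70, against 46.8% of RefSeq genes and 53.3% of protein-coding ones. Their 59 peaks had a median enrichment of 6.49. The counts of groups given here are a part of these 70 genes. Fgf11 to Fgf14, whose proteins bind sodium channels, had one in 4 of 4. The Trp genes had 8 of 21, the Clc chloride channels and transporters 5 of 9, the ryanodine and IP3 receptors 3 of 6, and the cyclic nucleotide-gated channels 0 of 6. CatSper genes had 1 of 4, the epithelial sodium channel 1 of 3, the Dpp, Lrrc and Stac genes 5 of 9, and the group of Nalcn, Hvcn1 and Tpcn 2 of 4. Chosen after their values were seen, Hcn2, a pacemaker channel, had 12.7 at 84 bp upstream of its TSS from 111 treatment and 18.4 input reads, Hcn4 had 7.84 at 262 bp upstream and 16.9 at 36.3 kb downstream, and Nalcn, a sodium leak channel, had 11.0 at its TSS.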

How the data were processed

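The deposited peak list was used as it stands. The authors aligned trimmed reads to mm10 (STAR 2.4.2a), took out duplicates (Picard 1.136), called peaks over the input (PeakRanger) and assigned each to the gene of the nearest TSS (HOMER 4.7). The deposited reads are a signal, averaged by the authors as reads per peak, and the deposited enrichment is a ratio, which the authors normalized for mapped reads and averaged. The deposited p-value is 0 for every peak and was not used. Peak centres were placed in the RefSeq annotation of GRCm38.p6, with GENCODE M21 as a second gene model. The members and lists were chosen with earlier results of these data known, and no test was made. Intervals are 95% Wilson intervals, or exact ones for ratios with up to 3 input reads, and cover counting error only. The counting code was tested on simulated data. Values were taken from genes that have one of the 10 highest enrichments, the 5 peaks with the most treatment reads, the 3 lowest enrichments, the 5 genes with the most peaks (ties kept), the highest peak near a TSS in each family, and families with up to 3 genes that have a peak. Values or sequences of Kcna3, Kcna4, Kcna5, Kcnh7, Kcnv1, Kcnk3, Cacna1d, Cacna1h, Cacng6, Hcn2, Hcn4 and Nalcn were chosen after they were seen. Python 3.11.15, NumPy 2.4.6, pandas 2.3.3, SciPy 1.17.1, pysam 0.24.0 and matplotlib 3.10.9 were used.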

Additional observations from a re-analysis of the deposited data

How the results depend on the processing

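Of 26 alternatives, 17 gave values within the counting interval or, for counts, within 1.5 times the reported one, and 9 moved further. The number of channel peaks was between 132 and 159 under its alternatives, against 165, and the number of channel genes with a peak within 5 kb between 67 and 83, against 78. With a limit of 1 kb in place of 5 kb, 42.4% of channel peaks were near a TSS in place of 53.3% (whole list 52.2%), and with GENCODE starts 61.8% (66.4%). With flanks of 5 kb added to the gene, 79.4% of channel peaks were inside their own gene in place of 68.5% (whole list 73.4%). The median enrichment of 7.05 was 3.23 as treatment reads over input reads plus 1, which leaves out the authors' normalization (whole list 2.93). It was 6.31 for peaks beyond 5 kb (whole list 6), and 8.14 for the best peak of each gene (7.07). The share of channel peaks with the motif, 84.2%, was 60.0% on the forward strand alone (whole list 54.4%) and 19.4% in the central 200 bp (16.6%), where fewer letters were searched. The median GC content near a TSS, 58.8%, was 65% in the central 300 bp (67.3%), where the order of channel peaks and whole list turned round. Its cause was not tested. Of the alternatives, 4 were chosen after seeing the data: GENCODE starts (for genes and for peaks), all 136 symbols, and the GENCODE gene body. Leaving out a library was not possible, since the list holds no values per library, and no paired analysis was possible because the labels pair no samples.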

Other observations

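A peak takes the gene of the nearest TSS, so that some peaks inside channel genes were assigned to a neighbour. Counting neighbours outside the channel genes, this was so for 41 peaks, centred inside 23 channel genes, of which 7 were within 5 kb of the TSS they were assigned to. They are not part of the 165. In 4 of the 23 genes (Cacna1d, Cacna2d4, Kcnk3 and Scn1a) no peak was assigned to the channel gene itself. Peaks inside one channel gene that were assigned to another, such as those of Cacng6 inside Cacng8, are among the 165 and not among the 41. The examples that follow were chosen after their values were seen. Cacna1a held 7 such peaks, assigned to Ier2, and Cacna2d2 held 6, assigned to Tmem115. Cacna1h held 4 over its 3′ exons, assigned to Tpsg1, of which chr17:25379401-25387600 had 146 treatment and 23.1 input reads and an enrichment of 10.9. Kcnk3, a two-pore-domain channel sensitive to acid, held 2, with enrichments of 10.1 and 10.5. One of them was centred 6 bp from the start of Gm9899. A peak with an enrichment of 9.95 inside Cacna1d was centred 10 bp from the TSS of Dcp1a.

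The listed distance had the same sign as that computed from the reference for 159 of the 165 channel peaks. The nearest reference TSS belonged to the same gene for 149. No channel peak was on the X chromosome, which holds 3 of the channel genes.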
